A study of Homo sapiens with 7 samples.

Results

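The subject here is a set of 10 genes of the Notch pathway in Daoy cells: the receptors NOTCH1, NOTCH2 and NOTCH3, the ligands JAG1, JAG2, DLL1 and DLL3, the target genes HES1 and HEY1, and the DNA-binding factor RBPJ. They were taken by symbol from the 17217 named genes of the arrays. They were read by 11 of the 24000 rows, 2 for DLL3 and 1 for each of the others. Daoy is an established human medulloblastoma line, labelled wild type and grown here in a serum-containing MEM-type medium with antibiotics, with no treatment. RNA of 2 biological replicates was hybridised to 7 single-colour Cy3 arrays, 4 for replicate 2 (arrays 1, 2, 3 and 4) and 3 for replicate 1 (arrays 1, 2 and 4). Both replicates are the same line in the same state, each put on a 4-plex array of its own per the design text, so a difference between them belongs to an RNA extract and its slide together and to no condition. The labels do not say that the arrays of a replicate come from separate cultures, so the p-values below measure the spread between arrays, which may be technical.

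Notch receptors are cleaved at the membrane after a ligand on a neighbouring cell binds them, first by an ADAM metalloprotease and then by the gamma-secretase complex. The released intracellular part enters the nucleus and binds RBPJ, which turns from a repressor into an activator of genes such as HES1 and HEY1. Those genes encode basic helix-loop-helix repressors that hold back neuronal differentiation, and in the cerebellum the pathway is known for keeping granule neuron precursors dividing.

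All values given are intensities on a log2 scale, and each array had its median at 8.15. RNA came from whole cultures, so fewer cells with a transcript and less of it per cell cannot be told apart. A level is the mean of the 2 replicate means, given with the SD over the replicates (n = 2). A gene was called above background when its level was over 7.54, a value that 95% of 364 olfactory receptor genes did not reach. Within a replicate the same line was drawn at 7.24 for replicate 2 and at 7.79 for replicate 1. The replicates were compared with limma across all genes, and a gene was called different at a Benjamini-Hochberg adjusted p below 0.05. Of 13 medulloblastoma and neural markers 7 were above background, and ATOH1, ZIC1, OTX2, GLI1, NES and DCX were not. In that list 61.5% were called, beside 49.8% of all named genes. Higher were 3 (TUBB3 at 0.40, ZIC2 at least 1.28-fold, and NES). Lower were 5 (GLI2 at -0.62, MAP2 at -0.57, PTCH1 at -0.23, ZIC1 and OTX2). NES, ZIC1 and OTX2 were under background in both replicates, and ZIC2 in replicate 1. Of 10 mesenchymal markers 10 were above background, of 10 endothelial markers 4 (PECAM1, TEK, TIE1 and ESAM), and of 10 leukocyte and 10 hepatocyte markers 0 each. The mean level of the endothelial list, cells in which Notch is also known to act, was 6.99 to 7.07 over the arrays of replicate 2 and 7.05 to 7.23 over those of replicate 1. That mean does not show the moves of single members, 50% of which were called, beside 49.8% of all named genes. Called higher in replicate 2 were PECAM1, under background in replicate 1, and CLDN5, under it in both. Called lower were 3, TIE1 at -1.67 (limma, adjusted p = 2.29e-06), ESAM at -0.75 (adjusted p = 0.000259) and EMCN, which was under background. TIE1 and ESAM were the called members above background in both replicates. CDH5, VWF, KDR, CLDN5, ROBO4 and EMCN were under background in both replicates, while TEK, TIE1 and ESAM were above it in both. The mesenchymal list averaged 11.70 to 11.77 over the arrays of replicate 2 and 11.62 to 11.65 over those of replicate 1. Of its 10 genes 8 were above background in replicate 1, LUM and DCN being under it there. In all 70% of the list was called. Higher were 3 (THY1 at 0.93, LUM at least 1.56-fold and DCN at least 1.80-fold). Lower were 4 (COL1A2 at -0.45, COL3A1 at -0.73, FN1 at -0.40 and TAGLN at -1.08). These markers were named after their values were seen, and the part of these lists in the results was not tested.

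Most of the pathway was detected in Daoy cells. Of the 10 genes, 8 were above background, beside 60.6% of all named genes. All 3 receptors, both targets and RBPJ were above it, while among the 4 ligands JAG2 and DLL1 were and JAG1 and the mean of the DLL3 rows were not. DLL3 was above the line of replicate 2 and under that of replicate 1, and the brighter of its rows was above background over both. Between the replicates 5 of the 10 genes were called, 4 higher and 1 lower in replicate 2, beside 49.8% of all named genes called in either direction, 25.5% higher and 24.2% lower. The share of called genes in the set was thus near that of all genes. The median difference was 0.24 over the 10 genes and -0.01 over all named genes.

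**Figure D1:**
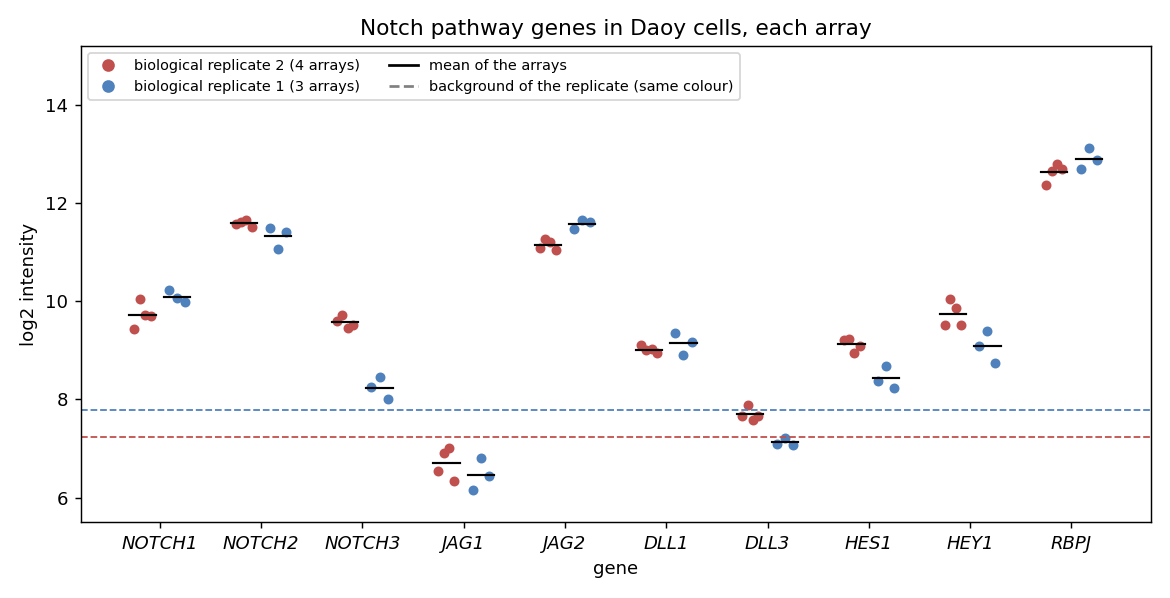
Log2 intensity (vertical axis) of the 10 Notch genes (horizontal axis) on each array, with replicate 2 (4 arrays) left of replicate 1 (3 arrays), short lines for the mean of the arrays and dashed lines for the background of each replicate. JAG1 lies under both lines, and the arrays of the replicates stand apart for NOTCH3, HES1, HEY1, DLL3, JAG2 and NOTCH2.

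Among the receptors, NOTCH3 differed between the replicates and was the one of the 10 genes with a difference over 1. NOTCH3, a receptor best known from vascular smooth muscle, had 9.59, 9.72, 9.46 and 9.51 on the arrays of replicate 2, against 8.25, 8.46 and 8.01 on those of replicate 1. The groups did not overlap, which held for 52.4% of all named genes. The difference of 1.33 ± 0.12 (SE; 2.51-fold higher in replicate 2) passed the limma test with an adjusted p of 3.71e-05, and its size was above that of 96.1% of named genes. A called difference over 1 was found in 8.97% of named genes. Under every alternative run the NOTCH3 difference was between 1.21 and 1.44.

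NOTCH1, the receptor most studied in neural progenitors, had 9.43, 10.04, 9.73 and 9.71 in replicate 2 and 10.23, 10.07 and 9.99 in replicate 1. Array 2 of replicate 2 reached the range of replicate 1, so the groups overlapped. The difference was -0.37 (95% interval -0.68 to -0.05) with an adjusted p of 0.0531 by limma. It passed the threshold without array 2 of replicate 2 (adjusted p = 0.0112) and with an intensity trend in limma's variance (adjusted p = 0.0495), so the call of NOTCH1 rests on that array and on the variance model.

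NOTCH2, a receptor with a broad range of tissues, had 11.57, 11.61, 11.66 and 11.51 in replicate 2 and 11.50, 11.07 and 11.42 in replicate 1. The groups did not overlap, by a margin of hundredths, and the difference of 0.25 (95% interval -0.01 to 0.52) was not called (limma, adjusted p = 0.0976). Humans carry partial copies of NOTCH2 nearly identical to it, the NOTCH2NL genes, and the probe sequences were not used here, so the NOTCH2 value may hold signal of those copies. By percentile of level among all named genes NOTCH2 stood at 89.1, NOTCH1 at 70.5 and NOTCH3 at 56.4. An intensity depends on its probes, so these are places in the distribution and no order of transcripts.

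The ligands moved in different directions or were not called. JAG2, a Serrate-type ligand, had 11.09, 11.26, 11.21 and 11.05 in replicate 2, against 11.48, 11.66 and 11.61 in replicate 1. Every array of replicate 2 was lower, and the difference of -0.43 ± 0.09 (SE; 1.35-fold lower in replicate 2) was called (limma, adjusted p = 0.00431). Its level of 11.37 ± 0.30 stood at percentile 88.3, and its arrays agreed closely, with an SD within replicates of 0.09 where the median over named genes was 0.15.

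DLL1, a Delta-type ligand that activates Notch on neighbouring cells, had 9.11, 9.00, 9.02 and 8.94 in replicate 2 and 9.35, 8.91 and 9.17 in replicate 1. The groups overlapped, and the difference of -0.13 (95% interval -0.38 to 0.13) was not called (limma, adjusted p = 0.379). Its level was 9.08 ± 0.09.

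JAG1, the ligand mutated in Alagille syndrome, had 6.54, 6.91, 7.01 and 6.34 in replicate 2 and 6.16, 6.81 and 6.44 in replicate 1. All 7 arrays lay under the background of their replicate and the groups overlapped, so no size of a difference is given (limma, adjusted p = 0.365). A value at background does not show that the transcript is missing, since each of these arrays reads a gene through probes of unknown strength.

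DLL3, a Delta family member known to act inside the cell as an inhibitor of Notch, was read by 2 rows of different transcripts. The brighter row had 8.0, 8.12, 7.91 and 7.95 in replicate 2, against 7.53, 7.23 and 7.32 in replicate 1. The dimmer one had 7.31, 7.65, 7.26 and 7.38 in replicate 2, against 6.68, 7.19 and 6.83 in replicate 1. In both rows each array of replicate 2 was above each of replicate 1. Their differences of 0.64 ± 0.10 and 0.50 ± 0.14 (SE) were called (limma over all rows, adjusted p = 0.000998 and 0.0182), beside 48.8% of all rows called in either direction, 24.6% higher and 24.2% lower. Over the 11 rows of the set 6 were called, and NOTCH3 was the one with a difference over 1, beside 10.2% of all rows. The brighter row had a level of 7.68 ± 0.45, above the background of 7.54, and the dimmer one of 7.15 ± 0.35, under it, so that the gene mean fell short of the line. The gene mean of DLL3 had an adjusted p of 0.0013. Replicate 1 was under its background of 7.79 in both rows, so the fold is only a lower limit, at least 1.15-fold for the brighter row and none for the dimmer one. The dimmer row lost its call without array 1 of replicate 1 (adjusted p = 0.0759) or without array 4 of replicate 1 (adjusted p = 0.0592).

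Both target genes were higher in replicate 2. HES1, the founding repressor of the pathway's targets, had 9.22, 9.23, 8.95 and 9.09 in replicate 2, against 8.38, 8.69 and 8.24 in replicate 1. Its groups did not overlap, and the difference was 0.68 ± 0.13 (SE; 1.60-fold higher, limma, adjusted p = 0.00188). HEY1, a related repressor with a YRPW-type tail, had 9.52, 10.05, 9.86 and 9.51 in replicate 2, against 9.09, 9.40 and 8.75 in replicate 1. The lowest array of replicate 2 was above the highest of replicate 1, at a difference of 0.66 ± 0.18 (SE; 1.58-fold higher, limma, adjusted p = 0.0137). HEY1 lost its call without array 4 of replicate 1 (difference 0.49, adjusted p = 0.0545), while HES1 kept its call under every alternative run. The spread of HEY1 between arrays of a replicate, an SD of 0.29, was above that of 90.8% of named genes.

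RBPJ, the factor through which the receptors act on DNA, stood highest of the 10 genes by place in the distribution, at 12.76 ± 0.19 and percentile 96.8. It had 12.36, 12.66, 12.80 and 12.69 in replicate 2 and 12.70, 13.13 and 12.87 in replicate 1. The groups overlapped, and the difference of -0.27 (95% interval -0.58 to 0.04) was not called (limma, adjusted p = 0.134). With the array number as a block it was -0.33 and passed (adjusted p = 0.0245), the one change of call that the block made among the 10 genes. Without array 3 of replicate 2 and with no block, the difference was also -0.33 but was not called (limma, adjusted p = 0.1003).

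**Figure D2:**
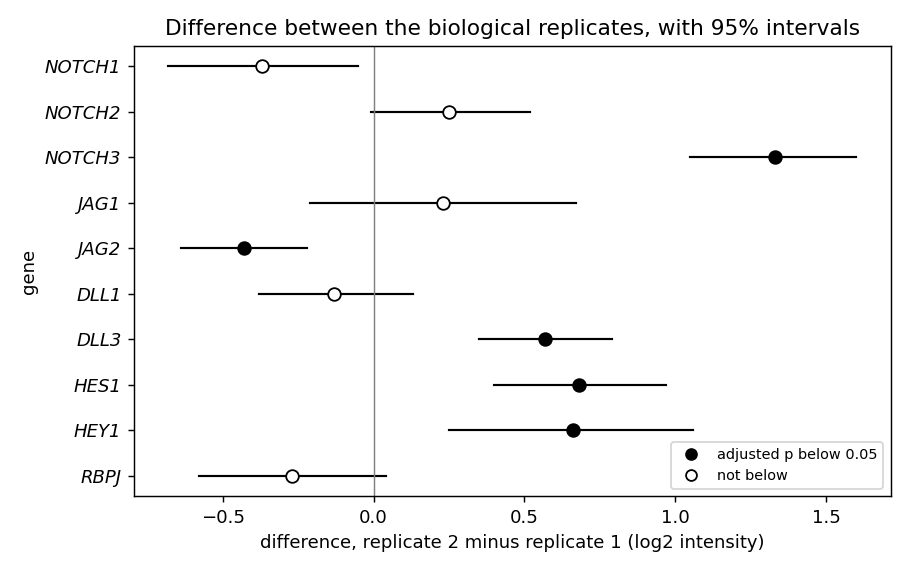
Difference of log2 intensity, replicate 2 minus replicate 1 (horizontal axis), for the 10 Notch genes (vertical axis), with 95% intervals from limma as lines and filled symbols for an adjusted p below 0.05. NOTCH3 at 1.33 stands furthest from 0, HES1 and HEY1 lie at 0.68 and 0.66, and JAG2 is the called gene on the lower side at -0.43. The DLL3 and JAG1 positions include values under background, so their distance from 0 is not to be read as a fold.

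The promoters of HES1 and NOTCH3 are printed because NOTCH3 is the called receptor and HES1 the called target whose window was found, so that a reader can look for the sites through which RBPJ acts. They are RefSeq sequences of GRCh38.p14, from 250 bases before to 50 bases after the start of the gene, 5′ to 3′ on the strand of the gene. Capitals mark the core TGGGAA of the RBPJ site, searched on both strands (TTCCCA on the other).
HES1, chr3:194135898-194136197, plus strand: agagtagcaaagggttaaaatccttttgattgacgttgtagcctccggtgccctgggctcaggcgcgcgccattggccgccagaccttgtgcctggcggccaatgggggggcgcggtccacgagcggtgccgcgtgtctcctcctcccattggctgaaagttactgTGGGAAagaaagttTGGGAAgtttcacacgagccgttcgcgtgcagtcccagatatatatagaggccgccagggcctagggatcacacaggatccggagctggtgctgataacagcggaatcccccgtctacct
NOTCH3, chr19:15200946-15201245, minus strand: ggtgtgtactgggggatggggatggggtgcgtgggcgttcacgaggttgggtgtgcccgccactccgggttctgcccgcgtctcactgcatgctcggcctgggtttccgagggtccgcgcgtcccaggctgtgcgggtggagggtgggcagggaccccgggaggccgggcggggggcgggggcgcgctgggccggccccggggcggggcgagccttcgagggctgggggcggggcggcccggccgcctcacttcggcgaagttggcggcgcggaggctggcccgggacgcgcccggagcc
HES1 held 2 copies of the core, whose first bases lie 84 and 70 bases before the start, and the NOTCH3 window held 0. The core occurred in 24% of 35116 RefSeq windows of this length, so a single match is common. The longer form GTGGGAA, which overlaps the core, was in 6.25% of windows. The HES1 window held it at the copy 84 bases before the start and not at the other. Forms of the site that depart from the core were not searched. Windows were found for 7 of the 10 genes, 11 windows in all, since RBPJ has 5. DLL1, DLL3 and HEY1 were not matched. The core was in 2 of the 11 windows, the other being 1 of the 5 of RBPJ. Letters in a window are a description and do not show binding in Daoy cells.

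**Figure D3:**
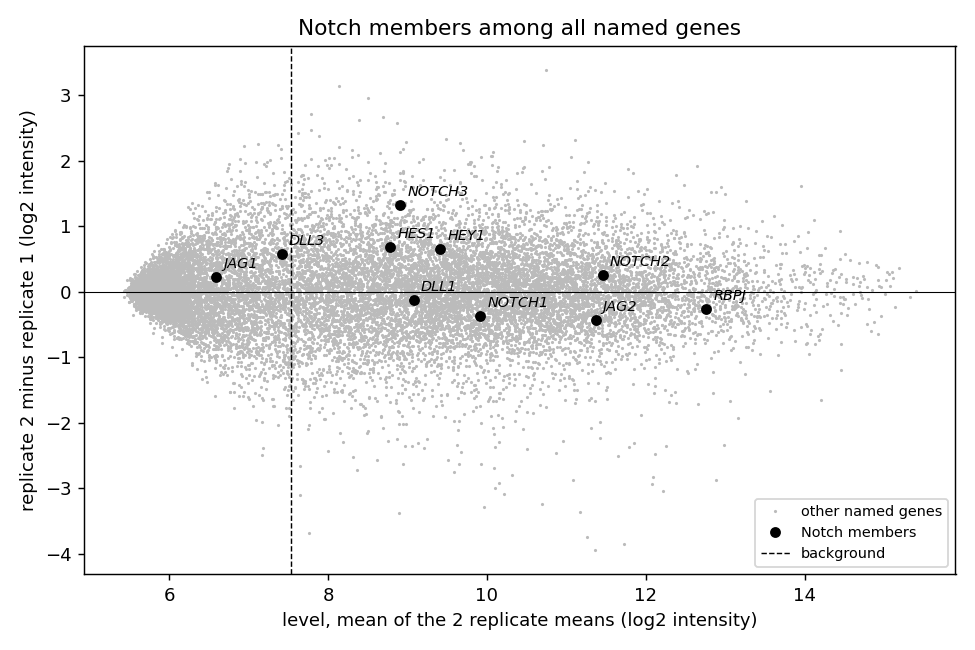
Difference between the replicates (vertical axis, log2 intensity, replicate 2 minus replicate 1) against level (horizontal axis, log2 intensity) for all 17217 named genes in grey and the 10 Notch genes in black, with background as a dashed line. NOTCH3, at a level of 8.91 and a difference of 1.33, is the one of the 10 genes above a difference of 1.

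The wider pathway was followed through 8 lists with 62 measured genes of 67 listed. Of these, 45 were above background, and 19 were higher and 14 lower in replicate 2 by the limma test (53.2% called, beside 49.8% of all named genes). Their median difference was 0.10. Of all named genes 25.5% were higher and 24.2% lower. The lists are described by counts, with no test of a list. DLK1, NEURL1B, DTX4, CIR1 and KDM5A were not analysed here. Genes named at the end of a list to complete its count were chosen after their values were seen.

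Of 4 other receptors and ligands, 1 was higher and 1 lower (50% called, beside 49.8% of all named genes). DNER, a neuronal membrane protein reported as a Notch ligand, had a level of 10.62 ± 1.07 and was higher by 1.51 ± 0.08 (SE, adjusted p = 3.45e-06). Its arrays were at 11.33, 11.44, 11.41 and 11.33 in replicate 2, against 9.82, 9.88 and 9.89 in replicate 1, with no overlap. The Delta-like protein DLK2 was at 8.85 ± 0.04 and the endothelial ligand DLL4 at 6.08 ± 0.24, under background. NOTCH4, the lower one, named after its values were seen, was under background in both replicates, so its size is not given.

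Among the 6 genes of receptor glycosylation and furin cleavage 1 was higher and 2 were lower (50% called, all named genes 49.8%). The fringe glycosyltransferase RFNG, at 10.18 ± 0.59, was higher by 0.83 (adjusted p = 8.09e-05). POGLUT1, which adds glucose to the receptor, was lower, at a difference of -1.33 (95% interval -2.07 to -0.59, adjusted p = 0.00842), with arrays between 7.16 and 8.92 in replicate 2 and between 9.25 and 9.58 in replicate 1. The convertase FURIN (9.90 ± 0.24) was called lower, at -0.34 (adjusted p = 0.0462), a call lost in 7 of 12 alternatives. The fringe gene MFNG was at 8.54 ± 0.23.

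Ligand endocytosis had 3 of 5 genes higher and 0 lower (60% called, all named genes 49.8%). The endocytic adaptor EPN1 (11.76 ± 0.62) was higher by 0.88 (adjusted p = 0.000318), and the ubiquitin ligase MIB2 (10.25 ± 0.38) by 0.54 (adjusted p = 0.00492). NEURL1, a ligase related to fly neuralized, was above background in replicate 2 alone and at least 1.62-fold higher there (limma, adjusted p = 0.000267). MIB1, the main ligase of Notch ligands in mice, was at 5.78 ± 0.15, under background.

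The ligand-induced cleavage step was detected throughout, with 8 of 8 genes above background and a median percentile of 88.8. It had 5 genes higher and 1 lower (75% called, all named genes 49.8%). PSENEN, a subunit of gamma-secretase, had 10.83, 10.54, 10.66 and 10.94 in replicate 2, against 9.26, 9.02 and 8.65 in replicate 1, a difference of 1.77 ± 0.16 (SE; 3.40-fold higher, adjusted p = 2.95e-05). ADAM10, the metalloprotease of the first cut, had 12.45, 12.07, 12.21 and 12.53 in replicate 2, against 13.46, 13.43 and 13.11 in replicate 1, a difference of -1.02 ± 0.14 (SE; 2.03-fold lower, adjusted p = 0.000314). The groups of both genes did not overlap, and their directions were opposite. The gamma-secretase subunit NCSTN was at 14.05 ± 0.18, and APH1B, another subunit, was at 8.82 ± 0.57 and higher by 0.80 (adjusted p = 0.00164). The other called genes, all higher, were the metalloprotease ADAM17 and the gamma-secretase subunits PSEN2 and APH1A.

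Receptor trafficking and turnover had 3 of 9 genes higher and 2 lower (55.6% called, all named genes 49.8%). NUMB, an adaptor that inhibits Notch, was at 10.94 ± 0.63 and lower, at a difference of -0.89 (95% interval -1.12 to -0.65, adjusted p = 0.000129). The ubiquitin ligase DTX1 was above background in replicate 2 alone and at least 1.26-fold higher there (adjusted p = 5.03e-05). DTX3L, of the same family, was at 11.57 ± 0.29 and higher by 0.40 (adjusted p = 0.00785). The kinase AAK1, at 5.90 ± 0.26, was called lower but lay under background in both replicates, and its call was lost in 5 of 11 alternatives. The third higher gene was the NUMB relative NUMBL, above background in replicate 2 alone.

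Of the 8 nuclear co-activators 0 were higher and 4 were lower. The called share of 50% was near the 49.8% of all named genes. MAML1, the Mastermind protein that joins the receptor on RBPJ, was lower at -0.69 (adjusted p = 0.00136). The acetyltransferases CREBBP and KAT2A were lower at -0.68 and -0.42 (adjusted p = 0.0149 and 0.00694). CREBBP lost its call without array 4 of replicate 1 (adjusted p = 0.0616). SNW1, a splicing factor that also binds RBPJ, was at 11.99 ± 0.06, and KAT2B, at 6.17 ± 0.04, was under background. The other lower gene was the Mastermind protein MAML3, under background in both replicates.

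Of the 13 co-repressors 1 was higher and 3 were lower (30.8% called, all named genes 49.8%). The deacetylase HDAC2 (12.34 ± 0.35) was lower at -0.50 (adjusted p = 0.000841) and the Groucho-type TLE2 higher at 0.61 (adjusted p = 0.00072). HDAC1 was at 12.51 ± 0.06, and L3MBTL3, at 5.56 ± 0.03, was under background. The other lower genes were the co-repressor NCOR1 and the Groucho-type TLE4.

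The other HES and HEY genes and NRARP, a feedback inhibitor, were mostly dim. Of 9 genes 1 was above background. HES4 had 8.89, 9.11, 8.59 and 8.52 in replicate 2, against 7.10, 7.29 and 6.94 in replicate 1, where it was under background, and was at least 1.98-fold higher in replicate 2 (limma, adjusted p = 3.82e-05). In all 5 were called higher (HES4, HES5, HES6, HES7 and NRARP) and 1 lower (HEY2), but 8 of the 9 had levels under background. The called share was 66.7%, beside 49.8% of all named genes. NRARP was at 7.28 ± 0.41 and HES3 at 5.73 ± 0.14.

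**Figure D4:**
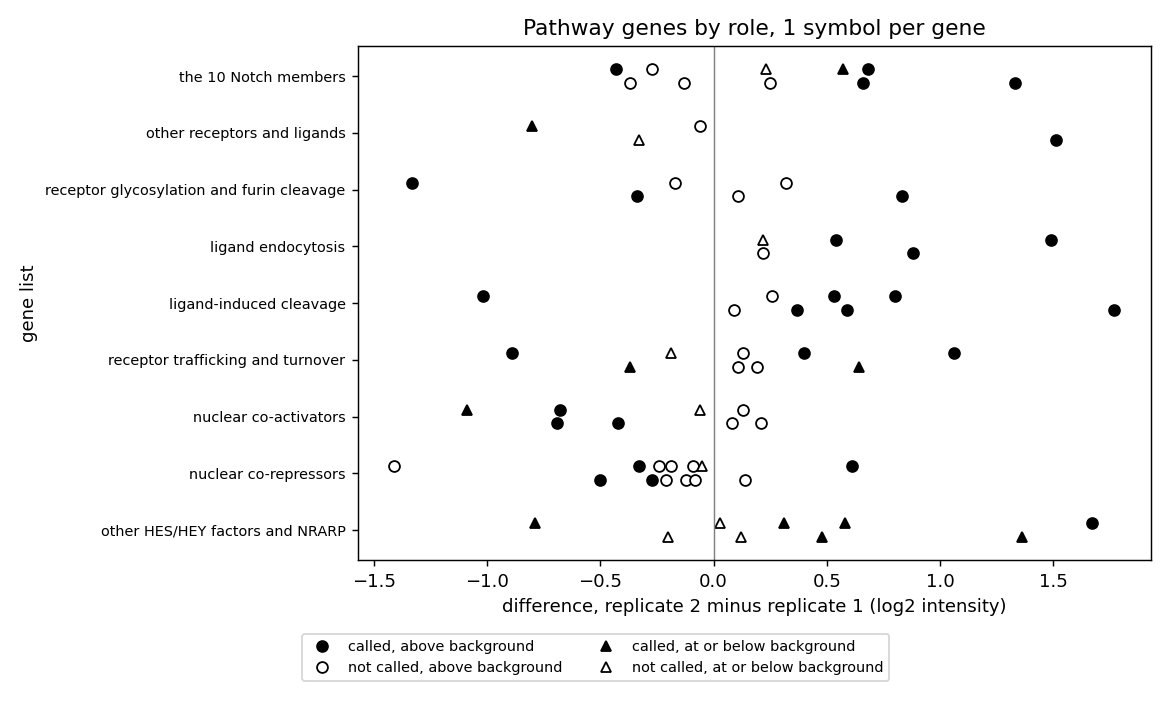
Difference of log2 intensity, replicate 2 minus replicate 1 (horizontal axis), for the 10 Notch genes and the 62 other pathway genes by list (vertical axis), filled where the adjusted p was below 0.05 and as triangles where the level was at or below background. Ligand endocytosis has no gene on the lower side, and the called nuclear co-activators all lie on the lower side. Of all named genes 25.5% were called higher and 24.2% lower, and no list was tested.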

How the data were processed

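The authors deposited a log2 intensity per array for each RefSeq accession. RMA and limma were used by the authors, per the submitters' processing notes, without versions. The log base is not stated and was taken as 2 from the range of 5.25 to 15.46. The sorted columns agree within 0.002, as quantile normalization leaves them. The genome build and annotation behind the probes were not given in the sources used here. Detection calls and single probes were not used here.

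Accessions were named through RefSeq of GRCh38.p14. Of the 24000 rows 19125 matched 1 symbol, and rows of a gene were averaged. limma 3.58.1 in R 4.3.3 (lmFit, eBayes, replicate 2 minus replicate 1) was fitted to all rows and to all genes. The gene fit was run on simulated data with noise independent between arrays and few changed genes. These data differ from that setting, so the simulation checks the running of the fit and not the calls given here. Where a replicate was under its background, a fold was given against that background. Deviations of same-numbered arrays from their replicate means correlated across rows at 0.21, 0.35 and 0.40 for arrays 1, 2 and 4, and differently numbered ones at -0.38 to 0.20, the highest being array 3 of replicate 2 with array 4 of replicate 1. The number was taken to pair the arrays from these values, not from a label, and the block was run as an alternative. Array 3 of replicate 2 has no partner in replicate 1. The difference with the block is therefore the one without that array, and only the variance is modelled differently. Named outside the set were, per list, the 2 brightest genes, the dimmest, and the 2 largest called differences above background. The set, the lists and this rule were chosen with earlier results of these data known. The number of arrays limits the precision.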

Additional observations from a re-analysis of the deposited data

Results flagged for a closer look

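For 3 of the 43 genes and rows examined, 1 array of replicate 2 lay far from the other arrays of that replicate, by a gap that was large beside the range of the 4 arrays (above the critical value of Dixon for 95%). By chance about 1 in 20 such groups is marked. EPN1 had 12.08 on array 3 and 12.23 to 12.26 on the others (gap over range 0.871). HDAC2 had 12.15 on array 1 and 12.07 to 12.08 on the others (0.908). TLE2 had 9.46 on array 3 and 9.64 to 9.66 on the others (0.88). All 3 gaps are smaller than the difference of the gene between the replicates.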

How the results depend on the processing

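The count of 5 called genes in the Notch set was 6 with the array number as a replicate block and 4 to 6 when each array was left out in turn. The 6 called rows were 7 with the block and 4 to 7 without single arrays, and the 33 called pathway genes were 33 with the block and 27 to 32 without single arrays. Over all 17217 named genes 8568 were called, 9392 with the block and 7331 to 8130 without single arrays. Over all 24000 rows 11701 were called, 12919 with the block and 9980 to 11084 without single arrays. The count of genes above background in the set was 8 or 9 over 6 alternatives, DLL3 being the gene that crossed the line, and that of the pathway genes was 40 to 51, against 45. Over all alternatives run no gene of the set changed direction. Of the other named genes, DLK2 turned to 0.043 without array 1 of replicate 1, against -0.06 with all arrays, and KAT2B to 0.068 without array 2 of replicate 1, also against -0.06. Over the single arrays left out DLK2 ranged from -0.159 to 0.043 and KAT2B from -0.161 to 0.068, with no call. Calls were also gained by DLL4 without array 1 of replicate 1 (adjusted p = 0.045) or array 4 of replicate 2 (adjusted p = 0.0494) and by NCSTN without array 2 of replicate 1 (adjusted p = 0.0351), and lost by AAK1 in 5 of 11 alternatives and by FURIN with the block (adjusted p = 0.0724). The cause was not tested. Signal over background was judged against olfactory receptor genes, or in 1 alternative against leukocyte and hepatocyte markers, and not by a detection call.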

Other observations

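Array 2 was the brightest array of both replicates for 5 of the 10 Notch genes, NOTCH3, JAG2, DLL3, HES1 and HEY1, and for 18.8% of all named genes. These 5 are the genes called between the replicates, and it held for 0 of the 5 that were not called. For DLL3 it held for the gene mean and for the dimmer row, which was under background. It did not hold for the brighter row, where array 2 was the lowest of replicate 1 (7.23, against 7.53 and 7.32). Over all named genes it held for 20.1% of called genes and 17.5% of those not called. The pattern was noticed after the values were seen, the labels do not say what the array number stands for, and no test was made.

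The 10 genes lie on 9 chromosomes, and NOTCH3 and DLL3, both higher in replicate 2, are both on chromosome 19. Of all named genes 25.5% were higher in replicate 2, and DLL3 was under background in replicate 1. The share for chromosome 19 was not taken, and a part of the chromosome was not tested.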
